A study of Mus musculus with 3 samples.

Results

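Last exons were compared within genes of normal mouse liver that use more than 1 of them. A last exon carries the 3′ end of a transcript, and a gene with alternative last exons can make proteins with different C termini, or transcripts with different 3′ untranslated regions, from the same promoter. The members are 309 genes with 648 expressed last exons, out of 10947 genes with a listed last exon. In all, 14350 last exons were listed, some of them without a gene identifier. Members were selected on the measured values. A gene entered when at least 2 of its last exons on 1 strand had a mean of at least 1 FPKM. The mean was over the libraries, and a last exon that was not listed counted as 0. FPKM, computed by the authors, scales fragments by the transcript's length and the library's total. Another 6808 genes had exactly 1 expressed last exon and serve as the comparison.

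The 3 libraries are wild-type (WT) C57BL/6 liver labelled healthy and male, and they form 1 group, replicates 1 to 3. The series concerns liver cancer, and tumours were not analysed here. Neither their age nor whether each came from its own animal is stated, so the spread between replicates may be technical. The tables list 71716, 74243 and 74236 transcript-structure events in replicates 1, 2 and 3, of which 12000, 12150 and 11950 are last exons. They hold no read counts, so the depth behind each value is unknown. All 10 hepatocyte markers averaged 1 FPKM or more, with a summed level between 36888 and 41678 FPKM per library. So did 7 of 8 markers each of Kupffer cells, sinusoidal endothelium and stellate cells, 4 of 6 of B cells and 2 of 6 of cholangiocytes. Only 1 of 6 T cell markers and 1 of 6 pancreas acinar markers did. Other liver cell types are thus present in these bulk samples. Against the male label, Xist, which is expressed from the inactive X chromosome of females, had a highest event of 65.7, 53.9 and 46.4 FPKM in replicates 1, 2 and 3, and none of Uty, Kdm5d, Eif2s3y and Ddx3y, which lie on the Y chromosome, had a listed event. All 3 libraries share this, so no result below compares libraries that differ in it.

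In the cell, the 3′ end of an mRNA is made by cleavage downstream of a poly(A) signal, most often AATAAA or the variant ATTAAA, followed by addition of a poly(A) tail. When a signal inside an intron is used, or when the splicing machinery skips to a later acceptor site, the transcript ends in a different last exon. Below, distal means the end farthest from the promoter and proximal an end closer to it. Each last exon was matched by position and strand to GENCODE M21 on GRCm38. In the tables a last exon is identified by its 5′ boundary, and each boundary occurred once per library. Tandem ends behind a shared boundary were therefore already merged, and all 648 members differ in where the last exon starts.

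The following windows, 30 bases each and read 5′ to 3′ from GENCODE M21 transcripts, are shown because they are ends of gene pairs on which the results turn. Capitals mark the poly(A) signal, where AATAAA or ATTAAA lay within the last 40 bases of the transcript. Each window stops at the transcript end except that of the proximal Rrbp1 end, which stops 7 bases before it.
Rrbp1 distal (chr2:143947395-143947424, minus strand): atgccATTAAAaccaacgtgttgcccggca
Rrbp1 proximal (chr2:143985860-143985889, minus strand): AATAAAgcaataatgataatgtccaaatgc
Psip1 distal (chr4:83455680-83455709, minus strand): attgttttaATTAAAgttttttctaccaaa
Psip1 proximal (chr4:83461871-83461900, minus strand): ttttaaAATAAAgtttttttaaaaaaaaaa
Gna13 distal (chr11:109401340-109401369, plus strand): tactgacatttAATAAAcatttataaatga
Gna13 proximal (chr11:109380446-109380475, plus strand): tcacctgAATAAAtgtcattttaaattcta
Il1rap distal (chr16:26717715-26717744, plus strand): tgcAATAAAccgtttattttcacctttgaa
Il1rap proximal (chr16:26702327-26702356, plus strand): ttcAATAAAcgctagctcttatttctccaa
Ighm distal, membrane form (chr12:113418558-113418587, minus strand): tggaAATAAAtactttatcttgtgaactca
Ighm proximal, secreted form (chr12:113420741-113420770, minus strand): tagaAATAAAaaaaatccattcaaacgtca
Masp2 distal (chr4:148610165-148610194, plus strand): tcttgggaccggccgatgccagagtgcagc
Masp2 proximal (chr4:148604388-148604417, plus strand): ccatgacaatAATAAAcctgcctccgtttc
Cdc37 distal (chr9:21133222-21133251, minus strand): taagccccaAATAAActtgccttctgtgaa
Cdc37 proximal (chr9:21140953-21140982, minus strand): cccgtggaggtctacgaatccctgcctgag
The first 5 pairs each carry a signal at both ends. The distal Masp2 end and the proximal Cdc37 end have neither hexamer in the last 40 bases, and the annotation gives them as a retained-intron transcript and as a coding transcript whose 3′ end is incomplete.

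The ends of 281 genes were 2 in number, those of 26 genes 3 and those of 2 genes 4. In 255 genes every end lay in the same annotated gene. In 25 genes the ends belonged to 2 or more annotated genes that the tables had joined under 1 identifier, in 25 at least 1 end could not be placed in a gene, and in 4 none could. The joined loci include some of the most abundant members: the Tomm40 locus held the ends of Apoe (apolipoprotein E), the Trf locus held an end of Srprb, the Bud13 locus held the end of Apoa5, and Cyp4v3 was joined with Klkb1 (plasma kallikrein). Where the ends of such a locus lie in different genes, they are ends of neighbouring genes and not alternatives of 1 gene. The 2 Apoe ends of the Tomm40 locus lie in 1 gene.

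Within the 309 genes the highest last exon held a median share of 79.5% of the gene's summed last-exon FPKM (quartiles 66.0% and 90.6%), and the second held a median of 20.1%. These shares describe genes selected on FPKM and are not tested. The highest exon reached 90% in 78 genes, whereas the second held at least 40% in 34 genes. Just inside the minimum, a last exon averaged 1.01 FPKM in both Cmpk1 and Serpina3g. That of Cmpk1 had 3.02, 0 and 0 FPKM in replicates 1, 2 and 3, so it passed through replicate 1 alone. That of Serpina3g had 0, 1.64 and 1.38 FPKM. Just outside the minimum, a second last exon averaged 0.997 FPKM in Ppp4c, 0.993 FPKM in Ints13 and 0.991 FPKM in Tefm.

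**Figure D1:**
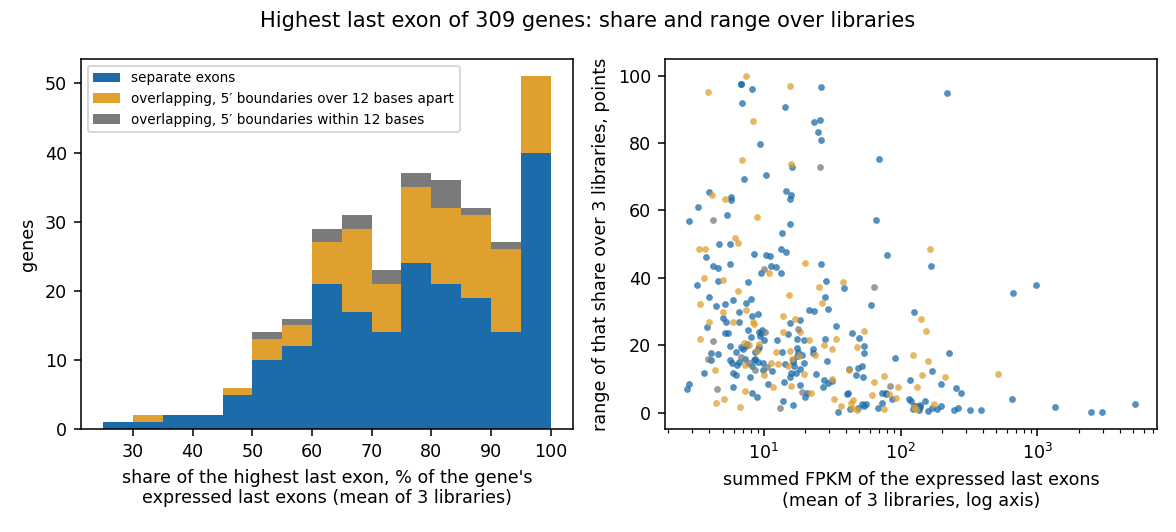
Left, share of the highest last exon (x axis, percent, in steps of 5) against the number of genes, coloured by how the 2 highest exons lie to each other. Right, the range of that share over the 3 libraries (points) against the summed FPKM of the gene's expressed last exons (log axis), each point being 1 gene in the same colours. Genes of high summed FPKM lie mostly at the bottom right, with a median range of 29.9 points in the 78 genes of lowest summed FPKM and 5.89 points in the 77 genes of highest.

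The same last exon was the highest in all 3 libraries in 229 of 309 genes (74.1%), and this was so in 74.2% of the 1931 genes with 2 or more listed last exons at any FPKM. The share among members was thus at the background. The most distal exon was the highest in every library in 204 genes (66.0%), against a background of 67.7%, where exons sharing the outermost 3′ end, found in 72 genes, all counted as distal. By mean FPKM the most distal exon was the highest in 240 genes (77.7%), against 81.8% of the 1931 genes. The 80 genes without a constant highest exon split by which library stood apart: replicate 1 in 31 genes, replicate 3 in 29 and replicate 2 in 17, with a different exon in each library in 3.

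How steady the choice of end was varied with the level. Among the 78 genes with the lowest summed FPKM (2.76 to 7.45) the highest exon was the same in all 3 libraries in 39, and among the 77 genes with the highest (48.0 to 5138) in 73. The minimum of 1 FPKM per exon keeps the second exon's share large where the summed FPKM is low. The highest exon's median share was 67.3% in those 78 genes and 95.1% in those 77. Steadiness and the size of that share therefore cannot be told apart here. The median range of the highest exon's share over libraries was 18.4 points over all members. Without replicate 1, 2 or 3 it was 9.71, 12.9 or 11.9 points, and a range over fewer libraries is lower by construction. Over all 3 libraries the median range was 15.9 points in the 237 genes whose exons were listed in every library. It was 38.4 points in the 72 genes with an exon missing from a table. How far the selection by a minimum, precision at low levels or missing rows account for these ranges was not tested.

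The 2 highest exons lay to each other in 3 ways. In 203 genes they did not overlap, with a median of 7731 bases between the outermost 3′ ends. In 90 genes they overlapped and their 5′ boundaries were more than 12 bases apart, with a median shift of 481 bases. In 16 genes they overlapped and the boundaries were at most 12 bases apart, a limit chosen after the values had been seen. Over all 203 separate pairs the distal exon was the highest by mean FPKM in 149 genes (73.4%). Where every end also lay in the same annotated gene, 155 genes in all, it was so in 128 (82.6%). The outermost ends of these 155 were a median of 6329 bases apart. The background of 81.8% is over a set not limited in these ways. It also holds overlapping exons that share the outermost 3′ end, so it is not a like comparison. The widest span within 1 annotated gene among the 10 widest members was 66930 bases in Ext2, a glycosyltransferase gene of heparan sulphate synthesis, which had 4.96, 5.98 and 5.61 FPKM at the distal end and 1.26, 1.61 and 0.370 FPKM at a proximal retained-intron end. Wider spans, up to 293149 bases at the Mug1 locus, ran to an end that could not be placed in a gene or into a neighbouring paralog, as between Selenbp1 and Selenbp2.

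The most direct cases were the 35 genes whose 2 highest exons were separate and both ended annotated coding transcripts with a complete 3′ end. This set, and the genes named from it below beyond those on fixed lists, were chosen after their values had been seen. The distal exon ended the longer annotated coding sequence in 22 genes, the proximal one in 9, and the lengths were equal in 4. Completeness was checked at the 3′ end only, so some of these sequences may lack their 5′ part. Their lengths need not be those of whole proteins. The median difference was 57 codons and the largest 799 codons, in Rbm26. The distal exon had the larger mean share in 24 of the 35 genes, and the same exon was the higher in all 3 libraries in 23. Over the 1931 genes with 2 or more listed last exons, the most distal exon was the highest by mean FPKM in 81.8%. The same exon was the highest in every library in 74.2% of them. That set also holds overlapping exons, so the 2 counts are a description and show no preference particular to these pairs. The exon of the longer coding sequence had the larger mean share in 19 of the 31 genes with unequal lengths. A poly(A) signal was present at both ends in 15. The distal share varied over libraries by less than 10 points in 9 genes and by at least 50 points in 8.

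**Figure D2:**
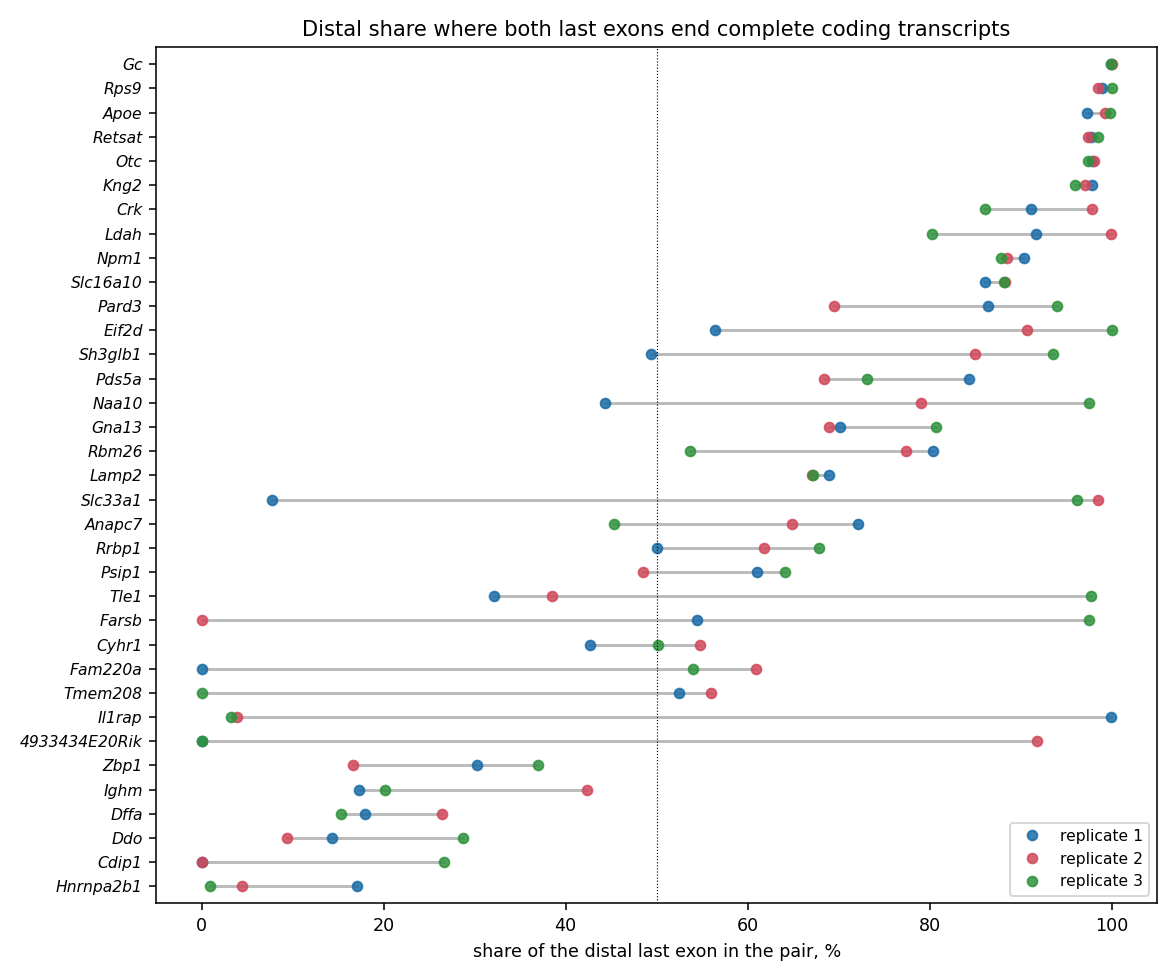
Share of the distal last exon in the pair (x axis, percent; dotted line at 50%) for the 35 genes whose 2 highest separate exons both end complete coding transcripts, 1 row per gene, with 1 point per library and a grey line over their range. Gc, Rps9, Apoe, Retsat, Otc and Kng2 sit above 95% in every library, Lamp2 stays between 67.1% and 68.9%, and Il1rap and Slc33a1 have replicate 1 at the opposite side from replicates 2 and 3.

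Lamp2, a major glycoprotein of the lysosomal membrane whose alternative last exons give proteins with different transmembrane and cytosolic tails, used both ends in a steady ratio. Its distal last exon had 115, 144 and 141 FPKM and its proximal one 51.9, 70.9 and 68.7 FPKM in replicates 1, 2 and 3. The distal share was 67.7% ± 1.05 (SD, n = 3), while the level at each end was lowest in replicate 1. Both annotated coding sequences have 415 codons, and the ends lie 14445 bases apart on chromosome X.

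Rrbp1, a ribosome-binding protein of the rough endoplasmic reticulum, used both ends at similar levels. The distal exon, which ends a coding sequence of 1464 codons, had 24.6, 36.0 and 37.7 FPKM, and the proximal exon, which ends one of 701 codons, had 24.5, 22.2 and 17.9 FPKM. The distal exon was higher in each library, by the smallest margin in replicate 1, and its share was 59.9% ± 9.03 (SD, n = 3).

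Psip1 encodes a chromatin-associated factor with a long form that binds further partners through its C terminus and a short form that lacks this region. The distal exon of the 528-codon form had 2.60, 1.91 and 2.61 FPKM, and the proximal exon of the 331-codon form had 1.66, 2.03 and 1.46 FPKM. The 2 sets of values overlapped, replicate 2 being the library in which the proximal exon was the higher.

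The G protein subunit gene Gna13 had 3.42, 4.26 and 5.46 FPKM at its distal exon (377 codons), against 1.46, 1.92 and 1.31 FPKM at its proximal exon (173 codons), without overlap. Slc16a10, a transporter of aromatic amino acids, had a distal share of 87.5% ± 1.21 (SD, n = 3) for coding sequences of 512 and 320 codons. Npm1, a nucleolar chaperone of ribosome assembly, had 54.9, 51.5 and 32.3 FPKM at the distal exon (292 codons) and 5.83, 6.68 and 4.46 FPKM at the proximal one (257 codons). The adaptor Crk had a distal share of 91.7% ± 5.88 (SD, n = 3) for 304 and 261 codons. In these 4 genes the exon of the longer coding sequence was the higher in every library.

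In another group the proximal exon was the higher, whichever coding sequence was the longer. Hnrnpa2b1, an RNA-binding protein, had 18.0, 4.15 and 0.675 FPKM at the distal exon (301 codons) and 87.7, 89.7 and 70.5 FPKM at the proximal exon (353 codons). Dffa, the inhibitor and chaperone of a caspase-activated nuclease, had a distal share of 19.9% ± 5.82 (SD, n = 3), although its distal exon ends the longer coding sequence (331 against 265 codons). Zbp1, a sensor of left-handed nucleic acids, had a distal share of 27.9% ± 10.4 (411 codons at the distal and 187 at the proximal end), and Ddo, the oxidase of D-aspartate, one of 17.5% ± 10.1 (167 and 341 codons; SD, n = 3 each). In each of these 4 genes the proximal exon was the higher in every library, and it ends the longer coding sequence in Hnrnpa2b1 and Ddo.

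**Figure D3:**
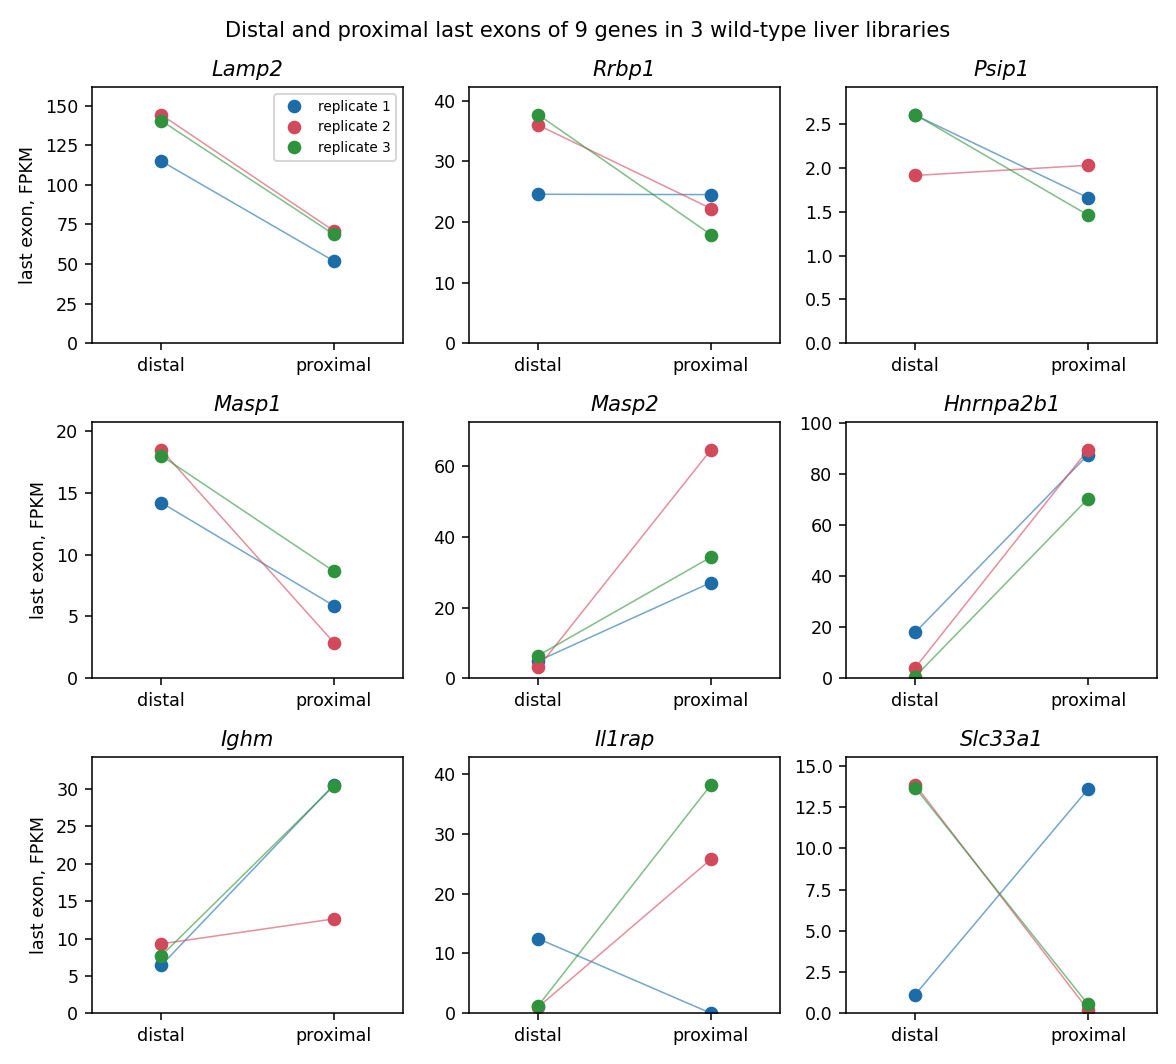
FPKM (y axes, linear and starting at 0) of the distal and the proximal last exon of 9 genes, with 1 point per library and lines joining the points of a library. For Ighm the distal exon ends the membrane form. Every library is higher at the distal end in Lamp2 and at the proximal end in Hnrnpa2b1, the lines cross in Psip1, and they run in opposite directions between replicate 1 and the other libraries in Il1rap and Slc33a1.

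Among 32 genes listed as textbook cases of alternative last exons, 27 had a listed last exon and 4 were members: Il1rap, Masp1, Masp2 and Ighm. Over all 10620 genes with a placed last exon, 262 (2.47%) had 2 or more expressed ones of their own. The list was written with earlier results of these data known and membership rests on FPKM, so the count is a description. Il1rap encodes the accessory protein of the interleukin-1 receptor. Its distal last exon ends the 570-codon membrane receptor, and a proximal last exon gives a shorter form, here of 360 codons, that lacks the membrane anchor and is known as a secreted product of liver. The distal exon had 12.5, 1.04 and 1.26 FPKM, and the proximal exon 0.0120, 25.7 and 38.2 FPKM. Replicate 1 thus had nearly all of its signal at the membrane form (99.9%), whereas replicates 2 and 3 had 3.89% and 3.21% there. The distal exon overlaps by 353 bases a last exon of Gm20319 on the opposite strand, which had 0.919, 15.8 and 23.3 FPKM. That antisense exon was low in replicate 1, where the membrane-form exon was high. No label states whether the libraries keep the strand, so reads of the shared stretch cannot be assigned with certainty. Its part in the result was not tested.

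Masp1 and Masp2 encode the proteases of the lectin pathway of complement, made in hepatocytes. Masp1 had 14.2, 18.5 and 18.0 FPKM at its distal exon and 5.87, 2.88 and 8.66 FPKM at its proximal one, 2 groups of values that did not overlap. Both 3′ ends differ from the annotated ones, but the 5′ boundaries are those of the last exons of coding transcripts with 704 codons (distal) and 733 codons (proximal). Masp2 is known for a short non-enzymatic product that ends early in the gene. Its distal listed end, of a retained-intron transcript, had 4.91, 3.08 and 6.43 FPKM, and its proximal end, of a 185-codon coding transcript, had 27.1, 64.7 and 34.3 FPKM. No other last exon of Masp2 was listed, so the full-length protease mRNA could not be set beside the short one.

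Ighm is the constant region gene of immunoglobulin M, whose membrane and secreted forms are the classic example of alternative 3′ ends. The distal membrane exon, which ends a sequence of 475 codons, had 6.39, 9.29 and 7.67 FPKM, and the proximal secreted end, of 454 codons, had 30.6, 12.6 and 30.4 FPKM. The secreted end was the higher in each library, least so in replicate 2, where the membrane share was 42.4%, against 17.3% and 20.1% in replicates 1 and 3. The tables join it with Ighg1 (0.980, 0.515 and 2.82 FPKM) and Igha (3.21, 11.4 and 0.231 FPKM) under 1 identifier. The B cell list, which holds Ighm, had 4 of 6 markers at 1 FPKM or more on average. Its other 5 markers summed to 11.2, 11.5 and 12.5 FPKM in replicates 1, 2 and 3, with Igkc at 0, so that replicate 2 was not the lowest there. In these bulk samples the number of B or plasma cells and the RNA per cell cannot be told apart.

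The other 23 textbook genes with a listed last exon had at most 1 expressed one. Vegfa had 79.2, 64.3 and 91.4 FPKM at its distal end and at most 0.110 FPKM at the other. Fgg (fibrinogen gamma chain) had 1092, 1557 and 1411 FPKM and the receptor gene Erbb3 15.8, 19.8 and 21.9 FPKM, each at a single listed exon. Kdr had 3.93, 5.77 and 6.08 FPKM at the end of its full receptor. The truncated end of Egfr, at 655 codons, had 5.85, 0.00177 and 0.0115 FPKM, high in replicate 1 alone. Both Flt1 ends stayed under 1 FPKM in every library.

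Large shifts between libraries were not limited to Il1rap. Slc33a1, an acetyl-CoA transporter, had 1.14, 13.9 and 13.7 FPKM at its distal exon and 13.6, 0.212 and 0.545 FPKM at its proximal exon, again with replicate 1 apart. Both annotated coding sequences have 550 codons. Tle1, a transcriptional corepressor, had 4.16, 7.82 and 10.4 FPKM at its distal exon (770 codons) and 8.81, 12.5 and 0.237 FPKM at its proximal exon (200 codons), with replicate 3 apart. The highest exon's share ranged by at least 50 points in 43 of the 309 genes.

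Several other genes with a large range had an exon listed in 1 library. In Tmed7, Vti1b and Bet1 a distal exon that could not be placed in them had 22.1, 23.1 and 7.76 FPKM in replicate 2 and was not listed in the other libraries. In Pxmp4 such an exon had 19.0 FPKM in replicate 3, and in Ndufa12 an unannotated boundary had 27.0 FPKM in replicate 1. Others had an exon that was low in replicate 1. In Abcc2, the canalicular export pump of bilirubin conjugates, the distal exon of the coding transcript had 0.597, 15.2 and 22.0 FPKM, and a proximal exon that could not be placed had 3.36, 3.94 and 2.97 FPKM. In Cdk5 the distal exon had 4.39, 4.42 and 3.37 FPKM and a proximal retained-intron end 0.0534, 10.3 and 8.54 FPKM. The switches at Cyp2c37 and Cyp2b9 are uncertain, since these cytochrome P450 genes have near-identical neighbours that can share reads.

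Of the 69 plasma protein genes with a listed last exon, 10 (14.5%) had 2 or more expressed last exons of their own, as had 7 of 71 metabolic enzymes (9.86%), beside 2.47% of all genes. Another 5 and 2 genes entered with 1 exon of their own, through joined loci or ends that could not be placed. The lists hold genes of high FPKM and the members were selected on FPKM, so these shares are a description. Where every end lay in the same annotated gene, 1 end held at least 90% in 5 of 8 plasma protein genes and 4 of 7 metabolic enzymes, beside 66 of 255 members (25.9%). Gc, the vitamin D-binding protein, had 2981, 2884 and 3002 FPKM at its distal end and 1.98, 0.198 and 2.01 FPKM at the proximal one. Apoe had 7502, 4568 and 3071 FPKM at its distal exon, and 209, 32.5 and 3.76 FPKM at a proximal exon of a 71-codon transcript. Kng2, a kininogen, kept a distal share of 97.0% ± 0.973, and Otc, the urea cycle enzyme ornithine transcarbamylase, one of 97.8% ± 0.317 (SD, n = 3 each). Acadvl, Ecm1, Creb3l3, Actg1, Scarb1 and the cytochrome Cyp2f2 had distal shares between 90.9% and 98.6%.

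In a further set of plasma protein genes the second end reached 1 FPKM in replicate 2 alone. Fn1 (fibronectin) had 157, 199 and 213 FPKM at its distal end and 0.0769, 18.7 and 0.0737 FPKM at a proximal retained-intron end. Azgp1 had 0.0682, 25.9 and 0.103 FPKM at such an end, Hgfac 0.0412, 5.52 and 0.0824 FPKM, and F11 (coagulation factor XI) 0.191, 9.84 and 0.942 FPKM at a noncoding one. All 4 passed the minimum mean through replicate 2. Hadha, a subunit of the long-chain enzyme complex of mitochondrial beta-oxidation, had 42.4, 58.7 and 35.1 FPKM at the distal end, against 3.35, 20.5 and 22.7 FPKM at a proximal retained-intron end, which was thus low in replicate 1 alone. Under F2, prothrombin, the highest end listed had 182, 200.2 and 195 FPKM but lay downstream and could not be placed in the gene, whose annotated coding end had 56.8, 11.9 and 27.4 FPKM.

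On the list of the 3′ end machinery, 25 of 27 genes of cleavage and polyadenylation averaged 1 FPKM or more, and the summed level of the list lay between 270.2 and 275 FPKM per library. Sympk, the scaffold of the cleavage complex, was the only member on that list, with 7.35, 8.76 and 9.21 FPKM at the distal end and 2.61, 2.32 and 1.98 FPKM at a proximal retained-intron end. Of 22 RNA-binding regulators of end choice, all at or above 1 FPKM, Khdrbs1 and Tardbp were members. Tardbp (TDP-43, known to regulate its own mRNA through its 3′ region) had 17.6, 7.94 and 5.30 FPKM at a distal end annotated to nonsense-mediated decay and 12.8, 5.78 and 7.70 FPKM at the proximal coding end. The distal end was the higher in replicates 1 and 2 and the lower in replicate 3. Khdrbs1 had 0.958, 2.74 and 3.44 FPKM at its distal decay-annotated end and 7.29, 4.98 and 5.09 FPKM at its proximal coding end.

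Transcription factor genes gave 3 members of 36 with a listed last exon (8.33%, beside 2.47% of all genes). Of the 48 genes on that list, 44 averaged 1 FPKM or more, whereas all genes include those of any level. Members were selected on FPKM, so the share is a description. Srebf1, which drives lipid synthesis genes, had 43.4, 15.6 and 32.4 FPKM at its distal coding end, and its 2 proximal noncoding ends reached at most 5.64 FPKM. Nr1i3, the xenobiotic receptor CAR, had 3 last exons with the same 3′ end and different starts: the one starting farthest downstream had 63.0, 134 and 88.3 FPKM, the next 59.3, 0 and 5.41 FPKM, and the longest 0, 35.3 and 34.6 FPKM. All 3 overlap a last exon of Tomm40l on the opposite strand (7.20, 11.8 and 12.9 FPKM). Over all members, 30 of 648 last exons (4.63%) overlapped an expressed last exon of the opposite strand. The same share over other last exons was not counted, so this one cannot be called particular to the members.

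The tables tell last exons apart by their 5′ boundary, so overlapping exons of a gene always differ in their start. Of the 106 overlapping pairs, 70 shared the same 3′ end, so that only the start differed. In 62 of the 90 pairs with boundaries over 12 bases apart the exon starting upstream ran across an annotated intron that ends where the other exon starts. Of these 62 pairs, 40 shared the same 3′ end. In the rest the exon starting upstream need not be the longer. The exon starting downstream, called spliced below, was the higher in 50 of these 62. The exon starting upstream held a median of 20.4% of the pair. Pck1, the rate-limiting enzyme of gluconeogenesis, had 541, 293 and 467 FPKM at the spliced last exon and 127, 24.6 and 80.3 FPKM at the longer one. Sult1a1, a phenol sulphotransferase, had 79.8, 109 and 94.8 FPKM at the spliced exon and 36.6, 18.3 and 29.8 FPKM at the longer one. In Lmna, the gene of lamins A and C, the longer exon had 13.9, 8.74 and 2.86 FPKM and the exon starting downstream 6.47, 5.06 and 4.37 FPKM, an order that turned round in replicate 3. Glo1, an enzyme of methylglyoxal removal, was higher at the longer exon, with 60.8, 76.4 and 71.8 FPKM against 14.5, 12.2 and 11.9 FPKM.

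The 16 pairs with close boundaries differ by 2 to 6 bases at the acceptor site. A shift of 3 bases was found in 10 and one of 4 bases in 3. The upstream boundary, which keeps the extra bases, was the higher in all but 3. The first 30 bases of the exon starting upstream are shown for 4 of them, with the bases in capitals that the other exon leaves out.
Depp1 (chr6:116651693-116651722, plus strand): CAGctatgaggtcccggcttctgctgcccg
Zcrb1 (chr15:93386257-93386286, minus strand): CAGgccaagattgaagaagagcaaagcaaa
Rnf10 (chr5:115242032-115242061, minus strand): AAGacagaggagggaagaaaaggaagagac
Mapk9 (chr11:49883142-49883171, plus strand): CACAGatgcagcagtaagtagcaaggctac
Each of the 4 stretches in capitals ends in the bases AG, the bases that close most introns. Depp1 had 57.3, 57.7 and 65.3 FPKM with the extra bases and 25.9, 23.6 and 19.7 FPKM without them, groups that did not overlap. In Zcrb1, a spliceosome component, the values were 8.36, 5.28 and 6.28 FPKM with and 2.10, 2.34 and 1.39 FPKM without the bases, for annotated proteins of 217 and 216 codons. Mapk9, the kinase JNK2, had 0.533, 1.93 and 1.34 FPKM with the bases (381 codons) and 6.19, 6.57 and 6.81 FPKM without them (423 codons). Rnf10 had 24.7, 7.45 and 7.88 FPKM with and 0.00129, 20.1 and 16.7 FPKM without them, and replicate 1 stood apart.

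What the ends carry was compared with single-end genes and with all listed last exons, using annotated transcripts and their sequence. The selection used neither of these, but it needed a gene identifier. Between 1.85% and 2.19% of the last exons per library had none, and these stay among all listed last exons. Of the 648 member exons, 49.2% ended a coding transcript with a complete 3′ end, against 74.1% of the 6808 exons of genes with 1 expressed last exon and 51.8% of all 14350 listed last exons. Retained-intron transcripts accounted for 13.4% of member exons, 3.06% of single exons and 13.7% of all listed exons. Exons that are no annotated last exon made up 24.4%, 16.6% and 21.2% in the same order. Member exons were thus near the shares over all listed exons, and single exons were the ones that stood apart. An annotated transcript end was met by 85.5% of member exons, 84.5% of single exons and 81.9% of all listed exons. Exons are not independent replicates, and no test was made of these shares.

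Within the 309 genes the classes split by level. The highest exons ended complete coding transcripts in 67.3%, against 32.7% of the other exons. Retained-intron ends made up 5.83% of the highest exons and 20.4% of the others. The highest exons had a median length of 832 bases and the others 493 bases.

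The poly(A) signal followed the same order. AATAAA or ATTAAA on the transcript strand lay in the last 40 bases of 57.9% of the 554 member ends with an annotated transcript end, against 73.9% of the ends of single-end genes and 58.6% of all listed ends. It was present at 68.8% of the highest and 47.9% of the other member exons. By class, 71.5% of complete coding ends carried it, 23.0% of retained-intron ends and 1 of 21 incomplete coding ends. AATAAA was the hexamer in 84.1% of the member ends with a signal, and the signal began a median of 23 bases before the end. A match describes these letters in this window and is not evidence of use. An incomplete coding end is by its annotation the edge of a partial transcript model, as at the proximal Cdc37 end printed above. Cdc37, the kinase-specific cochaperone of Hsp90, had 6.98, 7.15 and 7.70 FPKM at its distal exon and 7.38, 7.11 and 5.63 FPKM at that proximal end.

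**Figure D4:**
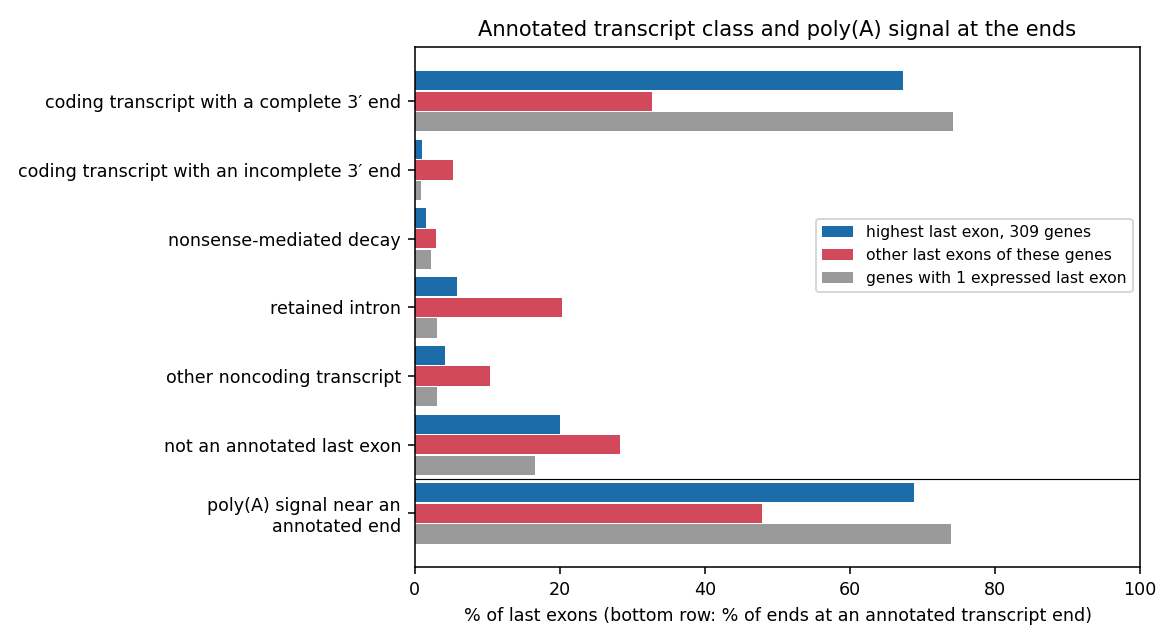
Percent of last exons (x axis) in each class of annotated transcript, and in the bottom row the percent of annotated ends with AATAAA or ATTAAA in the last 40 bases, for the highest last exons of the 309 genes, their other last exons and the exons of genes with 1 expressed last exon. The other exons have the fewest complete coding ends (32.7%), the most retained-intron ends (20.4%) and the lowest share with a signal (47.9%).

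Among the 34 genes whose second exon held at least 40%, both of the 2 highest exons ended complete coding transcripts in 8, 1 of them did in 17 and neither in 9. An incomplete coding end was 1 of the 2 in 4 genes, among them Cdc37, Etfb and Akr1c20. Etfb, the beta subunit of electron transfer flavoprotein, had 199, 151 and 132 FPKM at its distal coding end and 123, 119 and 97.2 FPKM at a proximal end of an incomplete coding transcript without a signal. Akr1c20, an aldo-keto reductase, had 23.0, 15.6 and 18.0 FPKM at the distal and 21.8, 24.96 and 22.7 FPKM at an incomplete proximal end, which was the higher in replicates 2 and 3. Chpt1, which makes phosphatidylcholine, had a second share just under 40% and is not among the 34 genes. It had 3 complete coding ends: the distal exon had 14.2, 9.84 and 9.004 FPKM, the next 12.2, 14.6 and 17.2 FPKM and the most proximal 2.56, 1.47 and 1.48 FPKM. Its distal exon was the highest in replicate 1 and the second in replicates 2 and 3.

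The other end of the transcripts was compared as well. Of the 309 genes 71 (23.0%) had 2 or more expressed first exons, as had 1092 of the 6808 genes with 1 expressed last exon (16.0%). Genes for which no first exon was counted, 22 of the 309 and 770 of the 6808, stay in these totals. The 309 also include the 25 loci that hold ends of 2 or more annotated genes. The shares are given as a description, with no test.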

How the data were processed

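Per the file headers, the deposited tables give the authors' FPKM for each transcript-structure event of a library; the program that made them is not stated. Tools recorded in the submitters' processing notes are HISAT2 2.0.1, cutadapt 1.9.1, DESeq2 and HTSeq 0.6.1, with the build mm9. Last exons were read as GRCm38, because between 82.1% and 83.0% per library matched a GENCODE M21 last exon exactly and none did after a shift of 1000 bases. Identical rows were dropped. Genes were defined by identifier and strand, with a minimum mean of 1 FPKM per last exon. Ends were placed by exact exon, then 5′ boundary, then 3′ end. Shares are of summed expressed last-exon FPKM, per library. The work used pandas 2.3.3 and numpy 2.4.6, and the member rule was checked on made-up data with known answers. With 1 group there was no contrast and no p-value.

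Members and gene lists were chosen with earlier results of these data known. Genes were named by list membership, by the highest summed FPKM, second-exon share, range over libraries (these last 2 at a summed FPKM of at least 10), number of ends and widest and narrowest spans, and by nearness to the minimum. Some items the rule would name are not reported here. The genes Lamp2, Psip1, Npm1, Slc16a10, Gna13, Crk, Hnrnpa2b1, Dffa, Zbp1, Ddo, Rps9, Retsat, Rbm26, Mapk9 and Zcrb1 were added after their values had been seen. Alternatives changed the minimum, the libraries, the merging of ends and the signal window. No counts are given, so depth and counting error are unknown.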

Additional observations from a re-analysis of the deposited data

How the results depend on the processing

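The number of genes with 2 or more expressed last exons followed the minimum: 485 genes with 1050 exons at 0.5 FPKM, 172 with 355 at 2 FPKM and 76 with 155 at 5 FPKM. It stayed within 1.5 times of 309 under every other alternative run, and identical rows kept changed nothing. Merging exons with the same 5′ boundary could change nothing, since each boundary occurred once, so it is no check. The percentage of genes whose most distal exon was the highest by mean FPKM, 77.7% as reported, became 74.4% at 2 FPKM, 68.4% at 5 FPKM, 82.0% with exons listed in every library, 70.9% with 3′ ends within 50 bases merged and 83.9% in genes with every end in 1 annotated gene, an alternative chosen after seeing the data. The median share of the highest exon became 75.9% at 2 FPKM, 73.6% at 5 FPKM, 78.3% with exons listed in every library, 78.4% with ends merged, and lay between 75.9% and 78.0% without 1 replicate. Its median range became 21 points at 2 FPKM and 16.0 points with exons listed in every library. Without 1 replicate, which leaves a difference between 2 libraries, it lay between 9.71 points (without replicate 1) and 12.9 points (without replicate 2). It was 11.9 points without replicate 3, and a range over fewer libraries is lower by construction. Without 1 replicate, the same exon was highest in every remaining library in 77.0% to 82.7% of genes. The median distance between outermost ends, 2774 bases over all members, became 6349 bases with ends merged and 1781 bases with every end in 1 annotated gene. Annotated ends became 88.6% with exons listed in every library, 90.7% with every end in 1 annotated gene and 88.1% when counted within 25 bases. The poly(A) signal was found at 55.5% of ends at 0.5 FPKM, 59.9% at 2 FPKM, 61.2% at 5 FPKM, 55.6% with exons listed in every library, 48.9% with ends merged, 58.2% to 59.2% without 1 replicate, 48.7% for AATAAA alone and 60.3% in the last 60 bases. The cause of these shifts was not tested.

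Leaving out replicate 1, 2 or 3 kept 273, 271 or 273 of the 309 genes, and 206 remained under all 3. The distal share of the 80 named loci moved by less than its SD in all 240 such repeats, which leaving out 1 of 3 values ensures. Taking it as a share of the summed FPKM moved it by no more than its SD in all 80, of which 14 had a distal share of 100% in every library, since all their exons share the outermost 3′ end. Signals in the last 40 bases and the next 10 were not run, since no genome sequence was used here. No paired analysis was possible because all samples are of 1 group.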

Other observations

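Among the other genes in the plot of distal shares of coding pairs, several had an end absent from 1 library. Farsb, a subunit of phenylalanyl-tRNA synthetase, had a distal share of 54.4%, 0% and 97.5% in replicates 1, 2 and 3, for coding sequences of 589 codons at both ends. Tmem208 had 52.5%, 56.0% and 0%, and Fam220a had 0%, 60.9% and 54.0%. Naa10, the catalytic subunit of an N-terminal acetyltransferase, had 44.4%, 79.0% and 97.5%. Pds5a, a regulator of cohesin, kept the distal end ahead in every library at 84.3%, 68.4% and 73.1%, as did Pard3, a cell polarity gene, at 86.4%, 69.5% and 94.0%. Cyhr1 used its 2 highest ends almost evenly, with 42.6%, 54.8% and 50.2% at the more distal of them. These genes were chosen after their values had been seen.

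Loci of paralogs gave pairs whose values are uncertain because near-identical copies can share reads. The beta-globin locus had 50.1, 133 and 34.5 FPKM at Hbb-bt and 109.9, 322 and 110.2 FPKM at Hbb-bs, both highest in replicate 2. Serpina1d had 978, 1551 and 1355 FPKM beside 23.9, 65.4 and 41.8 FPKM at an incomplete Serpina1a end. Under Cyp3a11 the tables joined a last exon of Cyp3a41a with 471, 579 and 438 FPKM and that of Cyp3a11 with 302, 21.5 and 179 FPKM.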
